A study of Mus musculus with 7 samples.

Results

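The transcripts described are those of 6 genes that govern the passage of a cell from G1 into S phase: the D-type cyclins Ccnd1 and Ccnd3, the E-type cyclin Ccne2, the phosphatase gene Cdc25a, the transcription factor gene E2f2, and Cdkn1a, which encodes the cyclin-dependent kinase inhibitor p21. They were followed in dissected hearts of wild-type and Myc-null mouse embryos, labelled E13.5 (days of gestation), with 3 wild-type and 4 Myc-null samples on 1 array each. Another label gives a wider window of stages around that day, and the number of hearts in a sample is not given. A target is a bead-bound oligonucleotide on the Illumina array, and every target whose identifier carries the NCBI gene number of one of these genes was taken. This gave 11 targets of 24048 on the array and 6 genes of the 7413 that could be named: 3 targets for Ccnd1, 2 each for Ccnd3, E2f2 and Cdkn1a, and 1 each for Ccne2 and Cdc25a. Of the 11 targets, 9 were detected on enough arrays to be tested (detection meant a score of 0.99 or more, and 3 of the 7 arrays were required), and the other 2 are given by their signals. The labels do not give the allele by which Myc was lost, the cells in which it was lost or the litters, so the p-values measure the spread between these samples, which may be technical. The labels speak of cardiac myocyte RNA, but whole hearts were lysed with no cell separation described, so in each result below fewer cells of a type and less RNA per cell cannot be told apart.

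In G1, D-type cyclins bind and activate CDK4 and CDK6, and E-type cyclins bind CDK2. These kinases phosphorylate the Rb proteins, which releases E2F factors to switch on genes for DNA synthesis. CDC25A activates the kinases by removing inhibitory phosphates, and p21 holds cyclin-CDK complexes inactive. Heart muscle cells of the embryo still divide, and they leave the cell cycle soon after birth. Myc is known in other cells as an activator of the genes for D-type cyclins, Cdc25a and E2f2 and as a repressor of Cdkn1a, acting there together with Miz-1.

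Of the 6 genes, E2f2 and Cdc25a had the most negative differences between Myc-null and wild-type hearts, and their promoter windows are shown for that reason, as read from RefSeq on GRCm38.p6. Each runs from 250 bases before to 50 bases after an annotated start, on the plus strand, 5′ to 3′. Capitals mark the E2F-type motif TTTGGCGC, which was searched on both strands. The E2f2 window is chr4:136172024-136172323 and the Cdc25a window is chr9:109875329-109875628.
E2f2: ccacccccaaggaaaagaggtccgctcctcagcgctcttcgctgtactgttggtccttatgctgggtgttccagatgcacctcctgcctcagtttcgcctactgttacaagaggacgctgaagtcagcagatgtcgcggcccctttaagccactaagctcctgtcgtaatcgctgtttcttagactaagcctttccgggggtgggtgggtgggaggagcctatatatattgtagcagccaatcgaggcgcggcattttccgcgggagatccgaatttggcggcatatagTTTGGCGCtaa
Cdc25a: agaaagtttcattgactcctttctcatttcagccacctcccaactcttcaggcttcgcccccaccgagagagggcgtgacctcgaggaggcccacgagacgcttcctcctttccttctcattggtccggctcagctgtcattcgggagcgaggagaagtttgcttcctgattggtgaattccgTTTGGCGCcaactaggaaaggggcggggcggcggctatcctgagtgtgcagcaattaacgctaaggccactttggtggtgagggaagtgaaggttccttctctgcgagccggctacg

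The motif begins at base 40 of the transcript in the E2f2 window and 67 bases before the start in the Cdc25a window. Among all 32851 promoter windows of the reference table, 0.514% hold it on either strand. Of the 6 genes, 4 had windows, 7 in all, and the 5 windows that are not printed (a second one of E2f2 and 2 each of Ccnd3 and Cdkn1a) do not hold these letters. A second E2F-type motif, TTTCCCGC, was in 0 of the 7 windows and in 1.07% of all windows. The Myc-type E-box CACGTG was in 0 of the 7 and in 7.15% of all windows. The motifs do not overlap each other, and a match or its absence describes these windows alone.

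The label of heart tissue was checked against heart muscle markers: of 21 listed, 8 had a named target and 7 of these were tested, with the myosin heavy chain gene Myh7 between 42505 and 72119 and the atrial light chain gene Myl7 between 7628 and 17149 over the arrays. Myc itself could not be read, since its target was detected on 0 of 7 arrays, so the genotype labels have no check here. All arrays lay on 1 chip with the genotypes at separate positions, so that position and genotype cannot be told apart. The wild-type 3 array stood apart from the rest, with 838 of 9441 tested targets at least 1 (log2) below their median over the arrays, against at most 102 on any other array (Myc-null 2). Its correlation with the other arrays, across targets, which are not independent replicates, was 0.926 to 0.938. Myc-null 2 was the highest array for markers of red blood cells, with a summed erythroid signal of 122152, against 77480 to 92921 in wild-type. It was also highest for cartilage markers, with 3101 against 457 to 962. The lists hold 5 tested erythroid markers of 13 and 4 tested cartilage markers of 13. Summed signals of 9 tested mesenchymal markers were 17360 to 26943 in wild-type, highest in wild-type 3, and 12157 to 20439 in Myc-null hearts. Those of 3 endothelial markers were 1732 to 2893, lowest in wild-type 3, and 2598 to 3139. For 6 epicardial markers they were 1566 to 2469 and 1378 to 2186, and for 2 leukocyte markers 286 to 295 and 264 to 297. A sum follows the brightest markers of its list. Taken singly, 3 mesenchymal markers had positive and 6 negative log2 differences, Myc-null minus wild-type (median -0.04). These counts were 1 and 2 for endothelial markers (median -0.15), 2 and 4 for epicardial (median -0.36) and 0 and 2 for leukocyte markers (median -0.10). They were 5 and 0 for erythroid markers (median 0.37), 3 and 1 for cartilage markers (median 0.50) and 5 and 2 for heart muscle markers (median 0.065). The part of these cell types in the results below was not tested.

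Gene positions below are from RefSeq on GRCm38.p6, and where in a transcript each target binds was not used here. Signals are the authors' normalized signal intensities, in which 0 is the level of the array's background. For fold changes, signals under a floor of 58.2 were set to it and log2 was taken, and genotypes were compared by limma over all 9441 tested targets with Benjamini-Hochberg adjustment. By this test 0 of the 9 targets of these genes passed an adjusted p of 0.05, and neither did any of the 9441 (0%), the smallest adjusted p being 0.764. Before adjustment, 1 of the 9 was under 0.05, the E2f2 target, lower in Myc-null hearts, against 1.99% of all tested targets that were lower and 5.4% in either direction. Differences between genotypes are therefore described below by their values and intervals. Levels of different targets are not compared with each other, because each oligonucleotide binds with its own efficiency.

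**Figure D1:**
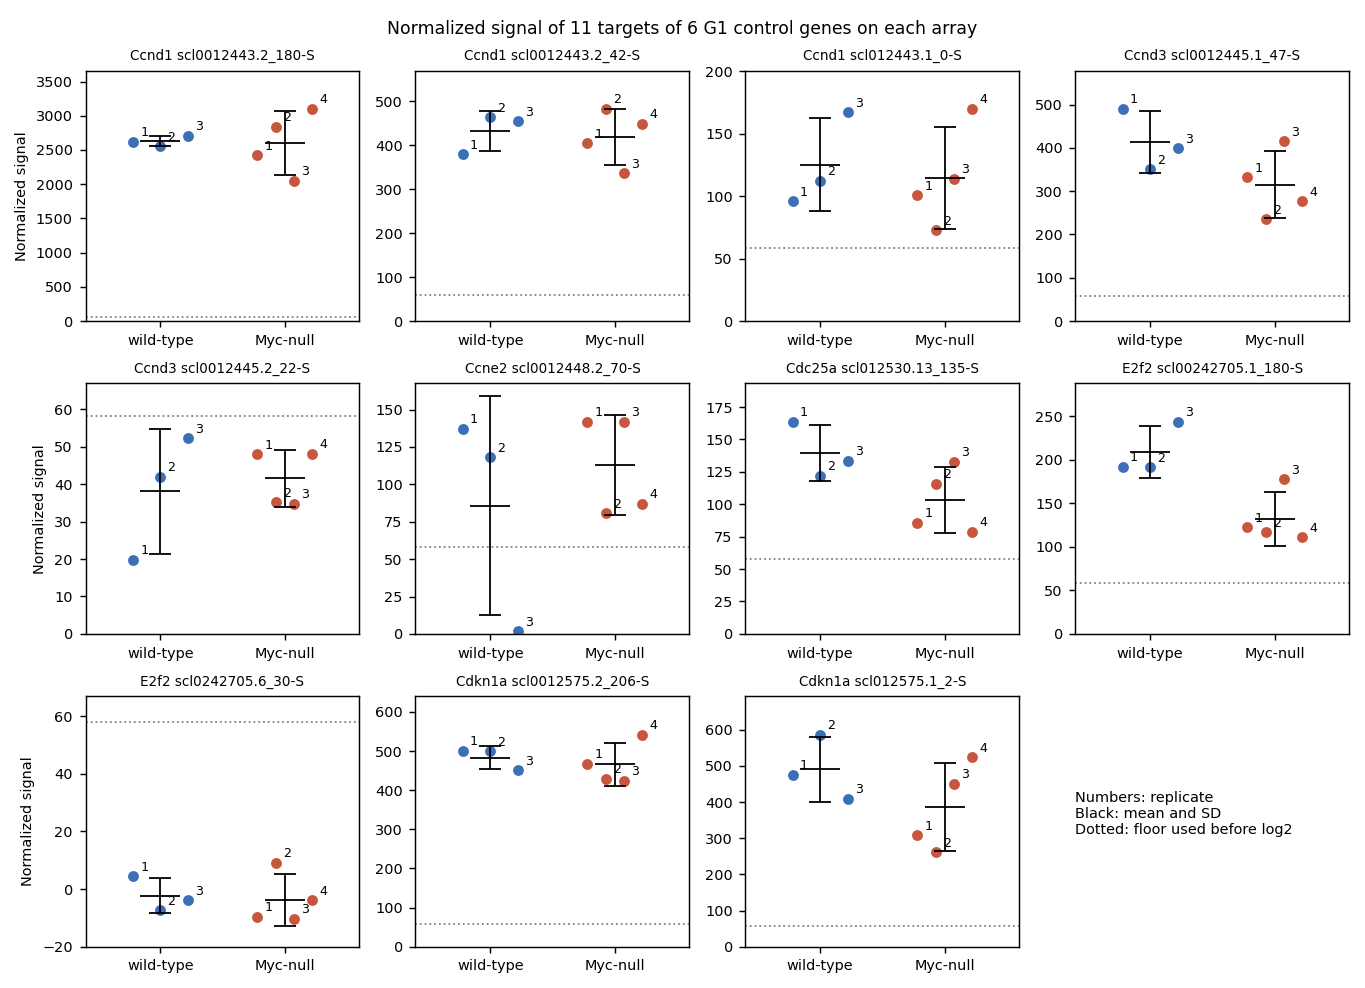
Normalized signal (vertical axis, arbitrary units, from 0 or below) of each of the 11 targets in wild-type (blue) and Myc-null (red) hearts, with the replicate number beside each point, the mean and SD in black and the floor of 58.2 as a dotted line. The E2f2 target scl00242705.1_180-S is the only one in which the genotypes do not overlap, and wild-type 3 is the only array with Ccne2 near 0.

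E2f2 (chr4:136172274-136196057), an activating member of the E2F family that drives genes of S phase, had lower signals on all 4 Myc-null arrays than on any wild-type array. Its detected target, scl00242705.1_180-S, measured 192, 191 and 244 on the wild-type arrays 1 to 3 and 122, 117, 178 and 111 on the Myc-null arrays 1 to 4. The Myc-null arrays 1, 2 and 4 lay close together, and Myc-null 3 lay just under the lowest wild-type value. The wild-type mean was 209 ± 29.99 and the Myc-null mean 132 ± 30.7 (SD over 3 and 4 arrays). On the log2 scale the difference was -0.68 (SE 0.19, 95% interval -1.14 to -0.22), which is a fold of 0.625. By limma the unadjusted p was 0.0101, the rank 79 among 9441 targets, and the adjusted p 0.764, so E2f2 did not pass. A complete separation with the Myc-null arrays lower occurred in 2.72% of all tested targets.

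Each signal averages many beads, 35 to 52 for this target. The deposited bead standard deviation was 4.36% to 7.88% of the raw signal, but neither the labels nor the headers say whether it is the spread of the beads or the error of their mean. Before normalization and background subtraction the signals were 266 to 410 in wild-type and 176 to 267 in Myc-null hearts, and wild-type 2 at 266.1 lay just under Myc-null 3 at 267.1, so the groups were fully separate only after the authors' normalization. In all 19 alternatives tried the difference was negative, from -0.83 to -0.48. Those that changed only the filter of targets could not move it. The lower floor could not either, since every signal of this target lay above the floor. It was -0.56 without wild-type 3, the highest array, with an unadjusted limma p of 0.0362. Without both wild-type 3 and Myc-null 2 it was -0.51, with an unadjusted limma p of 0.0823. The other E2f2 target, scl0242705.6_30-S, was detected on 0 of 7 arrays. Its signals lay between -7.41 and 4.58 in wild-type and between -10.3 and 9.17 in Myc-null hearts, so it holds no reading of E2f2 at these arrays' background, and the E2f2 difference rests on 1 target.

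In the authors' deposited table of difference scores, the detected E2f2 target had a score of -21.2. The direction of the scores is not stated in the authors' deposited table and was read from the arrays: all 433 tested targets with a score of 13 or more in size had the same sign as the Myc-null minus wild-type difference. A size of 13 is the score's equivalent of a p of 0.05, and 0.424% of all 24048 targets had -13 or less in the authors' deposited table. That share includes targets that were not tested, so it is not comparable with the shares of tested targets above. None of the other 10 targets of these genes reached that size. In the authors' deposited table Cdc25a had -8.76, the detected Ccnd3 target -8.27, the more variable Cdkn1a target -5.68, and the other 7 lay between -0.929 and 2.41.

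Cdc25a (chr9:109875518-109893895), whose phosphatase activates cyclin-dependent kinases at the G1/S boundary, had a lower Myc-null mean with overlapping groups. Its single target, scl012530.13_135-S, measured 164, 122 and 133 in wild-type 1 to 3 and 85.6, 116, 133 and 78.9 in Myc-null 1 to 4. Myc-null 3 lay within the wild-type range, and the other 3 Myc-null arrays lay below it. The wild-type mean was 140 ± 21.5 and the Myc-null mean 103 ± 25.4 (SD over 3 and 4 arrays), and the log2 difference was -0.46 (SE 0.22, 95% interval -0.97 to 0.06, limma adjusted p = 0.764). At its lowest, 78.9, the target was little above the floor of 58.2, and with the floor doubled the difference was -0.21. Leaving out single arrays gave values from -0.59 (without Myc-null 3) to -0.34 (without wild-type 1).

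Ccnd1 (chr7:144929931-144939831), the D-type cyclin that growth signals induce, showed no difference beyond the spread of the arrays in any of its 3 targets. The first, scl0012443.2_180-S, measured 2622, 2555 and 2709 in wild-type 1 to 3 and 2421, 2842, 2053 and 3102 in Myc-null 1 to 4. The wild-type values sat inside the Myc-null range, which reached from the lowest to the highest of the 7 arrays. The log2 difference was -0.03 (SE 0.15, 95% interval -0.40 to 0.33, limma adjusted p = 0.971), so changes within these bounds remain possible.

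The next Ccnd1 target, scl0012443.2_42-S, measured 379, 464 and 455 in wild-type and 405, 483, 336 and 449 in Myc-null hearts. Its log2 difference was -0.06 (SE 0.15, 95% interval -0.42 to 0.31; limma adjusted p = 0.934). In both of these targets Myc-null 3 was the lowest array of the 7. The third Ccnd1 target, scl012443.1_0-S, measured 96.0, 112 and 167 in wild-type and 101, 72.8, 114 and 170 in Myc-null hearts. Here Myc-null 2, among the highest for the other Ccnd1 targets, was the lowest array. The log2 difference was -0.16 with a wider interval, -0.91 to 0.60 (SE 0.32; limma adjusted p = 0.907), and its sign turned to 0.07 without wild-type 3 and to 0.04 without Myc-null 2.

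Whether targets of 1 gene disagreed by genotype was asked through their log2 ratio within an array, in which a factor common to the array cancels. For Ccnd1, scl012443.1_0-S over scl0012443.2_180-S averaged -4.43 ± 0.38 over the wild-type and -4.56 ± 0.52 over the Myc-null arrays (SD, n = 3 and 4, exact 2-sided permutation p = 0.771), with Myc-null 2 lowest at -5.29. The ratio of scl0012443.2_42-S to scl0012443.2_180-S was steadier, -2.61 ± 0.17 and -2.63 ± 0.11 (exact permutation p = 0.886). That of scl012443.1_0-S to scl0012443.2_42-S was -1.82 ± 0.33 and -1.93 ± 0.59 (exact permutation p = 0.8). With 3 against 4 arrays there are 35 splits and the smallest p is 0.0286. Of the 4 ratios compared, the fourth being that of Cdkn1a below, 0 had a p under 0.05, and the adjusted p over the 4 was 0.886 for each.

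Ccnd3 (chr17:47505051-47599689), the D-type cyclin best known from blood cells and muscle, had a lower Myc-null mean with overlap. Its detected target, scl0012445.1_47-S, measured 490, 350 and 399 in wild-type 1 to 3 and 333, 236, 415 and 277 in Myc-null 1 to 4. Again Myc-null 3 lay within the wild-type range and the other 3 Myc-null arrays below it. The wild-type mean was 413 ± 71.0 and the Myc-null mean 315 ± 77.7 (SD over 3 and 4 arrays), with a log2 difference of -0.41 (SE 0.22, 95% interval -0.93 to 0.11; limma adjusted p = 0.764). The value was -0.28 without wild-type 1, the highest array, and also -0.28 without Myc-null 2, the lowest. The other target, scl0012445.2_22-S, was detected on 2 arrays, wild-type 3 and Myc-null 1. Its signals of 19.8 to 52.3 in wild-type and 34.8 to 48.1 in Myc-null hearts all lay under the floor, so it was not tested and adds no reading of a difference.

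Ccne2 (chr4:11190433-11204779), an E-type cyclin that partners CDK2 at the start of S phase, was present on 6 of the 7 arrays and at background on the other. Its single target, scl0012448.2_70-S, measured 137, 118 and 1.93 in wild-type 1 to 3 and 142, 80.8, 142 and 86.9 in Myc-null 1 to 4. The reading near 0 was in wild-type 3, with a raw signal of 112 over 45 beads and a detection score of 0.586, against raw signals of 159 to 269 and scores of at least 0.99 elsewhere. The Myc-null arrays formed a high pair, 1 and 3, and a low pair, 2 and 4. The log2 difference was 0.15 (SE 0.36, 95% interval -0.71 to 1.02; limma adjusted p = 0.925), and without wild-type 3 it was -0.22 (limma adjusted p = 0.931). The direction for Ccne2 thus depended on the array that stood apart. Its size depended on how the reading near 0 was treated, from 0.057 with the floor doubled to 0.49 with the lower floor tried, 0.38 with an offset in place of a floor and 0.54 with raw signals normalized by neqc.

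Cdkn1a (chr17:29090979-29100722), which p53 activates and which stops the cycle in G1, was read by targets that differed in how much they varied. The steadier target, scl0012575.2_206-S, measured 501, 499 and 451 in wild-type 1 to 3 and 468, 429, 424 and 542 in Myc-null 1 to 4, with Myc-null 4 highest of all. Its log2 difference was -0.06 with the narrowest interval of the 9 targets, -0.34 to 0.22 (SE 0.12; limma adjusted p = 0.902). The other, scl012575.1_2-S, measured 476, 586 and 409 in wild-type and 309, 262, 451 and 524 in Myc-null hearts. Myc-null 1 and 2 lay below all wild-type arrays there, while Myc-null 3 and 4 lay among them. Its log2 difference was -0.38 (SE 0.27, 95% interval -1.03 to 0.26; limma adjusted p = 0.764).

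The ratio of scl012575.1_2-S to scl0012575.2_206-S was 0.01 ± 0.20 (log2) over the wild-type and -0.32 ± 0.40 over the Myc-null arrays (SD, n = 3 and 4), a difference of -0.32 (exact permutation p = 0.286). It was -0.60 and -0.71 in Myc-null 1 and 2 and 0.09 and -0.05 in Myc-null 3 and 4. Without single arrays the difference ranged from -0.19 (without Myc-null 2) to -0.46 (without Myc-null 3), and it was -0.21 without wild-type 2. Neither target had a higher mean in Myc-null hearts, and both had a negative difference in all alternatives run, from -0.14 to -0.02 over 19 for the steadier and from -0.55 to -0.22 over 18 for the other. Alternatives that changed only the filter of targets could not move these differences.

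**Figure D2:**
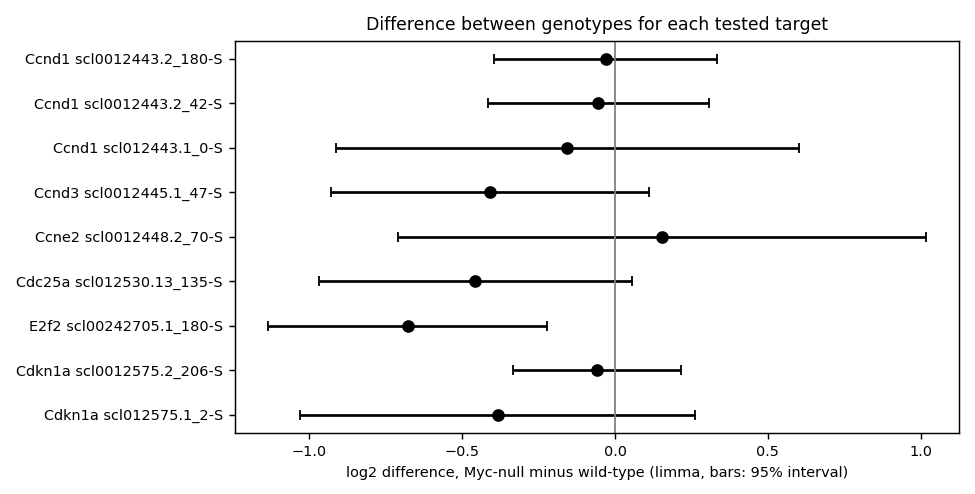
Log2 difference between Myc-null and wild-type hearts (horizontal axis) with its 95% interval by limma for each of the 9 tested targets. The interval of E2f2, -1.14 to -0.22, is the only one that does not include 0 before adjustment.

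Across the genes, 8 of the 9 tested targets had lower Myc-null means, all but Ccne2. The median over all tested targets was 0.03 (log2), with 44.8% of all tested targets lower in Myc-null hearts. The median of the 9 was -0.16. The count holds 3 targets of Ccnd1 and 2 of Cdkn1a, and targets of the same gene are not separate evidence. Whether they read the same transcript was not tested.

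**Figure D3:**
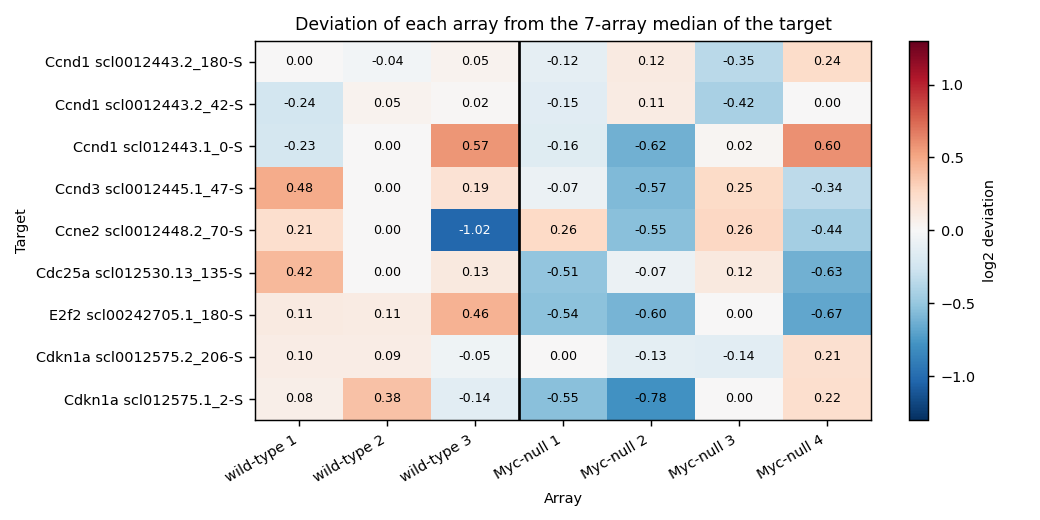
Log2 deviation of each array (columns) from the 7-array median of each tested target (rows), with wild-type arrays left of the line. Wild-type 3 is at -1.02 for Ccne2, and Myc-null 3 is at 0.00 for E2f2 while the other Myc-null arrays are at -0.54 to -0.67.

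Myc-null 3 was the highest Myc-null array for E2f2, Cdc25a, Ccnd3 and Ccne2, which is 4 of 9 targets, against 22.6% of all tested targets. Myc-null 4 was highest for the remaining Ccnd1 and Cdkn1a targets except scl0012443.2_42-S, also 4 of 9, against 33.7% of all. For E2f2 the deviation from the 7-array median was -0.54, -0.60, 0.00 and -0.67 on Myc-null 1 to 4. For Cdc25a it was -0.51, -0.07, 0.12 and -0.63, and for Ccnd3 -0.07, -0.57, 0.25 and -0.34.

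**Figure D4:**
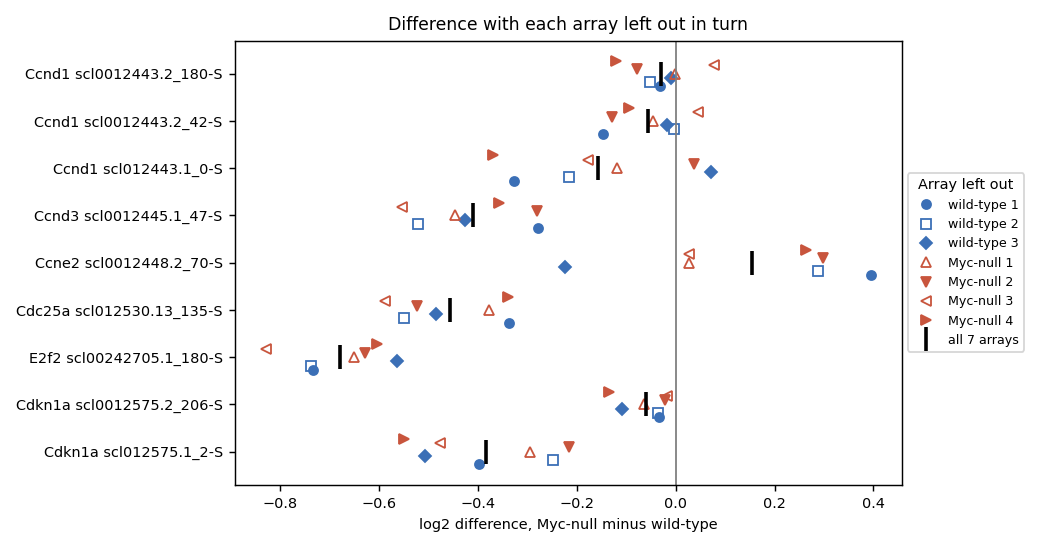
Log2 difference between genotypes (horizontal axis) for each tested target with all 7 arrays (black bar) and with each array left out in turn (symbols, blue for wild-type and red for Myc-null arrays). E2f2 stays between -0.83 and -0.56, while Ccne2 moves from 0.15 to -0.22 without wild-type 3.

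The named genes whose signal varied most alike over the 7 arrays were found by the root mean square difference of log2 deviations, as a description. For E2f2 they were Jph2, which links the cell membrane to the calcium store of heart muscle, at 0.16, and the transcriptional coregulator Cited2, at 0.18. Cdc25a was nearest to Hdgf (0.17) and Crkl (0.19), and Ccnd3 to the signalling protein Wnt5a (0.09) and the caveolar protein Cavin1 (0.13). For E2f2 and Cdc25a 0 of 3762 named targets came within 0.15. Ccne2 was nearest to Cobll1 (0.08) and Zmpste24 (0.11), which were also lowest in wild-type 3.

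Targets with little variation had many neighbours, so likeness there says little. The steady Cdkn1a target, nearest to Iscu (0.05) and Rpl15 (0.06), had 462 targets within 0.15, and the Ccnd1 target scl0012443.2_180-S, nearest to Mthfd1l and Psmb5 (0.06 and 0.07), had 159. Nearest to scl0012443.2_42-S were Itpr3 (0.05) and Panx1 (0.06), with 52 targets within 0.15. The Itpr3 signal on Myc-null 3, 32.2, had been set to the floor. The Ccnd1 target scl012443.1_0-S was nearest to Tnxb (0.15) and Trim47 (0.17), and the variable Cdkn1a target to Sertad2 (0.11) and Ndufa10 (0.12). The Tnxb signal of 57.3 on Myc-null 2 had also been set to the floor.

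Other genes of the pathway were taken from 5 lists, each gene by its brightest tested target, and 0 of 17 tested genes passed the adjusted threshold. Of 14 other G1 cyclins, their kinases and CDC25 genes, only 2 had a named target, the CDK-activating kinase subunits Ccnh and Mnat1. Ccnh measured 594, 552 and 380 in wild-type and 638, 766, 546 and 930 in Myc-null hearts, a log2 difference of 0.50 (SE 0.23), which was 0.30 without wild-type 3. Mnat1, its assembly factor, measured 393, 436 and 317 against 398, 491, 469 and 627, a difference of 0.37 (SE 0.18), and 0.24 without wild-type 3. Wild-type 3 was the lowest array for both. The adjusted p of each by limma was 0.764.

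Among CDK inhibitors and the ubiquitin ligase parts that set their turnover, 3 of 13 listed genes could be tested, and all 3 had higher Myc-null means (median 0.24). They were Fbxw7, which targets cyclin E for degradation (0.36, and 0.14 without wild-type 3), the ring subunit Rbx1 (0.24, and 0.14 to 0.31 without single arrays) and Skp2, which targets p27 (0.09, and -0.03 without wild-type 3). Cdkn1b, the gene for p27, was detected on 0 arrays, as were Cks1b and Cks2. Of 16 Rb and E2F family genes 3 were tested. The E2F partners Tfdp1 and Tfdp2 differed by -0.09 and 0.06 and the repressor E2f6 by 0.03 (limma adjusted p of 0.910 to 0.962), and each of the 3 changed sign when single arrays were left out. E2f3 was detected on 1 array and E2f8, Lin9 and Lin52 on 0, so of the activating E2F genes taken here, E2f2 alone was compared.

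Genes that E2F factors activate for DNA synthesis had 5 of 6 tested members with higher Myc-null means and a median of 0.14. Pcna, the sliding clamp of DNA polymerases, measured 165, 190 and 166 in wild-type and 194, 280, 211 and 243 in Myc-null hearts. All Myc-null arrays lay above all wild-type arrays, as in 4.02% of all tested targets, and the log2 difference was 0.41 (SE 0.15; limma adjusted p = 0.764). The ribonucleotide reductase gene Rrm2 differed by 0.19, and by 0.086 without wild-type 3. The replication-linked chromatin factor Uhrf1 differed by 0.16, by 0.29 without wild-type 3 and by 0.097 without wild-type 1. The thymidine kinase gene Tk1, named because it was the only lower one, differed by -0.10, and by -0.013 without wild-type 3. Tyms, the thymidylate synthase gene, was detected on 0 arrays. None of the 6 tested passed the adjusted threshold.

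On the p53 side of p21, 3 of 19 listed genes were tested, 1 with a higher and 2 with lower Myc-null means. The p53 targets Aen, Zmat3 and Ccng1 differed by -0.34, -0.23 and 0.17, and without wild-type 3 they were at -0.55, -0.08 and -0.16. Leaving out single arrays gave -0.55 to -0.13 for Aen. Its signals were 77.1, 105 and 39.9 in wild-type and 56.8, 51.3, 51.5 and 72.0 in Myc-null hearts. Wild-type 3 and Myc-null 1 to 3 were thus set to the floor of 58.2, on which the Aen difference rests in part. Mdm4 and Pmaip1 were detected on 0 arrays. The lists thus leave most of the pathway unread, because 27 of the 82 listed genes had a named target.

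**Figure D5:**
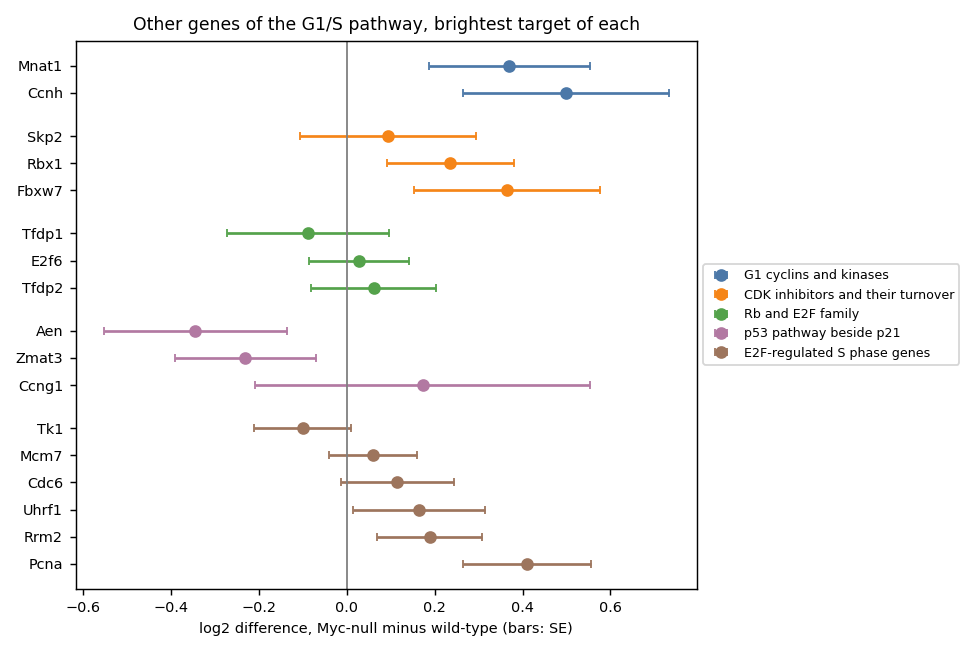
Log2 difference between Myc-null and wild-type hearts (horizontal axis, bars are SE) for the 17 tested genes of 5 pathway lists, coloured by list. The values run from -0.34 for Aen, which had signals under the floor, to 0.50 for Ccnh, and none passed the adjusted threshold.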

How the data were processed

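Total RNA (100 ng) of 7 heart samples was amplified and hybridised to Illumina MouseRef-8 BeadChips, per the labels' protocols. For each array the authors deposited raw signal intensity, bead numbers, bead standard deviations (signal units) and a detection score, which is a fraction, exported from BeadStudio 1.5.1.3 with no normalization per the file headers. The deposited matrix holds signal intensity normalized by the rank-invariant method per the series' design text (BeadStudio 1.5.0.34 per the submitters' processing notes), and on each array it was linear in the raw signal, the slopes being 0.809 to 1.43. The authors' deposited table gives a difference score per target with no stated direction. The number of arrays limits the precision.

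Signals under 58.2, a low percentile of the detected targets, were set to that floor, so fold changes of dim targets depend on it. They are understated where the lower group is raised more, and can be overstated where the higher group is. The 2-sided comparison of genotypes used lmFit and eBayes of limma 3.58.1 (R 4.3.3) with group as the only term, over 9441 targets, each its own unit, and ratios of targets with an exact permutation test. The limma step was tested on simulated data, with changes of at least 1 (log2) in targets well above the floor. These changes were larger than any difference of the 6 genes. Identifiers with 1 or 2 leading zeros were read as NCBI gene numbers, and 8884 of 9523 (93.3%) were found in the reference table (GRCm38.p6). The files pair no names with targets. The members and lists were chosen with earlier results of these data known. Named are all targets of the 6 genes, Myc, and the 3 genes of each pathway list with the smallest p. Also named are the pathway list members not tested and Tk1 (chosen after values were seen), and the 2 genes most like each tested target. Of cell type markers, the 2 brightest of cardiomyocytes are named, and other cell types are given only as list sums and counts. Further lists covered erythroid, endothelial, mesenchymal, epicardial, leukocyte and cartilage markers.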

Additional observations from a re-analysis of the deposited data

How the results depend on the processing

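Over 167 values of the 9 tested targets under 19 alternatives (other normalizations, floors, filters and left-out arrays), 160 had the same direction, 7 reversed and 0 changed in call. The filters changed only which targets were tested, so under them no difference could move or reverse. Their values among the 160 are therefore no support for a direction. E2f2, Cdc25a, Ccnd3 and both Cdkn1a targets were negative in all alternatives run. The unadjusted limma p of E2f2 was under 0.05 in 18 of 19, that of Cdc25a in 4 of 19 and that of Ccnd3 in 1 of 19. Leaving out single arrays gave -0.12 to 0.078 for scl0012443.2_180-S, -0.15 to 0.045 for scl0012443.2_42-S, -0.37 to 0.072 for scl012443.1_0-S and -0.22 to 0.40 for Ccne2. Without wild-type 3 and Myc-null 2 together, scl012443.1_0-S was at 0.27 and Ccne2 at -0.079. Other floors and normalizations moved Ccne2 between 0.057 and 0.54. The ratio of scl0012443.2_42-S to scl0012443.2_180-S ranged from -0.12 to 0.0485 without single arrays. That of scl012443.1_0-S to scl0012443.2_180-S ranged from -0.30 to 0.12 and was 0.32 without both arrays. That of scl012443.1_0-S to scl0012443.2_42-S ranged from -0.28 to 0.17, was 0.36 without both arrays and 0.018 with the floor doubled. The Cdkn1a ratio ranged from -0.46 to -0.19 without single arrays. Across all targets, those with an unadjusted p under 0.05 numbered 510, and from 327 (without Myc-null 2) to 746 (without wild-type 2) without single arrays. The causes were not tested. Whether the replicate numbers pair the samples is not stated. Deviations of same-numbered arrays from their group means correlated at 0.17, -0.26 and -0.32, but with so few arrays this cannot settle it. With the replicate number as a block 0 targets were called, E2f2 was at -0.60, and the ratio of scl0012443.2_42-S to scl0012443.2_180-S was 0.027. Only the Myc-null group has a replicate 4, so the block gave the same differences as leaving out Myc-null 4. Those differences are not a separate alternative. Signals near or under the floor, as for Cdc25a, Ccne2 and Aen, limit what could be detected.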
